A study of Mus musculus with 20 samples.

Results

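The genes, cell types and tissues that carry the signal of the undisturbed mouse airway were read from 5 whole tracheas of uninjured wild-type mice, each hybridised to 1 Agilent whole mouse genome array, out of 20 arrays in the series. On each array every probe that is not a control was expressed as its level, the log2 of its processed signal after division by that array's 75th percentile, so that a level of 0 is the 75th percentile of the array and each further unit is a doubling of signal. Of 41174 probes, 23700 were well above background on all 5 arrays. These probes stood for 16447 of the 27670 gene names on the array, and each gene was ranked by the mean level of its brightest probe. The brightness of a probe depends on its own sequence as well as on its transcript, so that the order is of brightness and not of transcript number, and each value is compared with the same probe on other arrays.

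The uninjured wild-type mice were C57/Bl6, 4 months of age per the labels and 25 to 30 g in weight, were kept on a reversed light cycle and received no injury. The whole trachea was taken with the surrounding connective tissue trimmed. The labels give no sex, and the study's methods name male and female mice. The other groups, of 5 tracheas each, were Myd88KO without injury, and wild-type and Myd88KO after injury, where Myd88KO mice lack the Toll-like and interleukin-1 receptor adaptor Myd88, were bred onto the same background and were held as a colony separate from wild-type, and where injury was a dose of 2% polidocanol, a detergent that strips the surface epithelium, given into the airway 3 days before collection. Each array held the RNA of a single labelled sample, and no label says how many mice gave it. The study's methods call the 5 samples of a group biological replicates.

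The trachea is a tube of cartilage rings closed by smooth muscle and lined by a pseudostratified epithelium, in which basal cells renew club (Clara) and other secretory cells and ciliated cells, while submucosal glands near the larynx secrete mucus and antimicrobial proteins. Skeletal muscle of the larynx and oesophagus, fat, thyroid, thymus and the stratified squamous epithelium of larynx and oesophagus lie against it. In RNA of a whole organ, fewer cells of a type and less RNA in each cell cannot be told apart.

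Replicate 3 stood apart from the other 4 arrays. Over the 16447 genes, the levels of replicate 3 correlated with those of the other arrays at Pearson's r of 0.953 to 0.961, and the remaining 6 pairs at 0.976 to 0.987, as descriptions across genes, which are not independent. The share of probes well above background was 61.3 to 65.5% on the 5 arrays, the 75th percentile signal ran from 495 to 873, and the spread between repeated spots of a probe within an array had a median SD of 0.055 to 0.0646, with replicate 3 at 0.0646. Replicates 1 and 5 were scanned on scan day 2 and replicates 2, 3 and 4 on scan day 1, and each of 5 slides held 1 array of every group, the replicate number being that of the slide. Results that replicate 3 can move are given below with and without it.

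The signal was concentrated in few genes. The 100 brightest genes held 25.2% ± 2.65 (SD, n = 5) of the summed linear signal of all ranked genes, with 26.5, 24.0, 22.6, 23.9 and 29.3% on replicates 1 to 5. The 10 brightest held 5.46% ± 0.894 and the 1000 brightest 64.1% ± 2.72, against a median gene level of 0.10 and quartiles of -1.79 and 1.89. Of the 100 brightest genes, 26 belonged to 32 marker lists of 311 genes that define the cell types, tissues and states named below, 23 encoded cytosolic ribosomal proteins, 10 encoded subunits of the mitochondrial respiratory chain and 41 belonged to none of these sets. The 26 listed genes were 9 of club and secretory cells, 6 of skeletal muscle, 5 of submucosal gland, 2 of adipocytes (Cfd and Fabp4), 2 of fibroblasts (Gsn and Dcn), the lysozyme gene Lyz2 from the macrophage list, and Tg, the thyroglobulin of the thyroid. None came from the basal, ciliated, cartilage, smooth muscle, endothelial or lymphocyte lists.

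**Figure D1:**
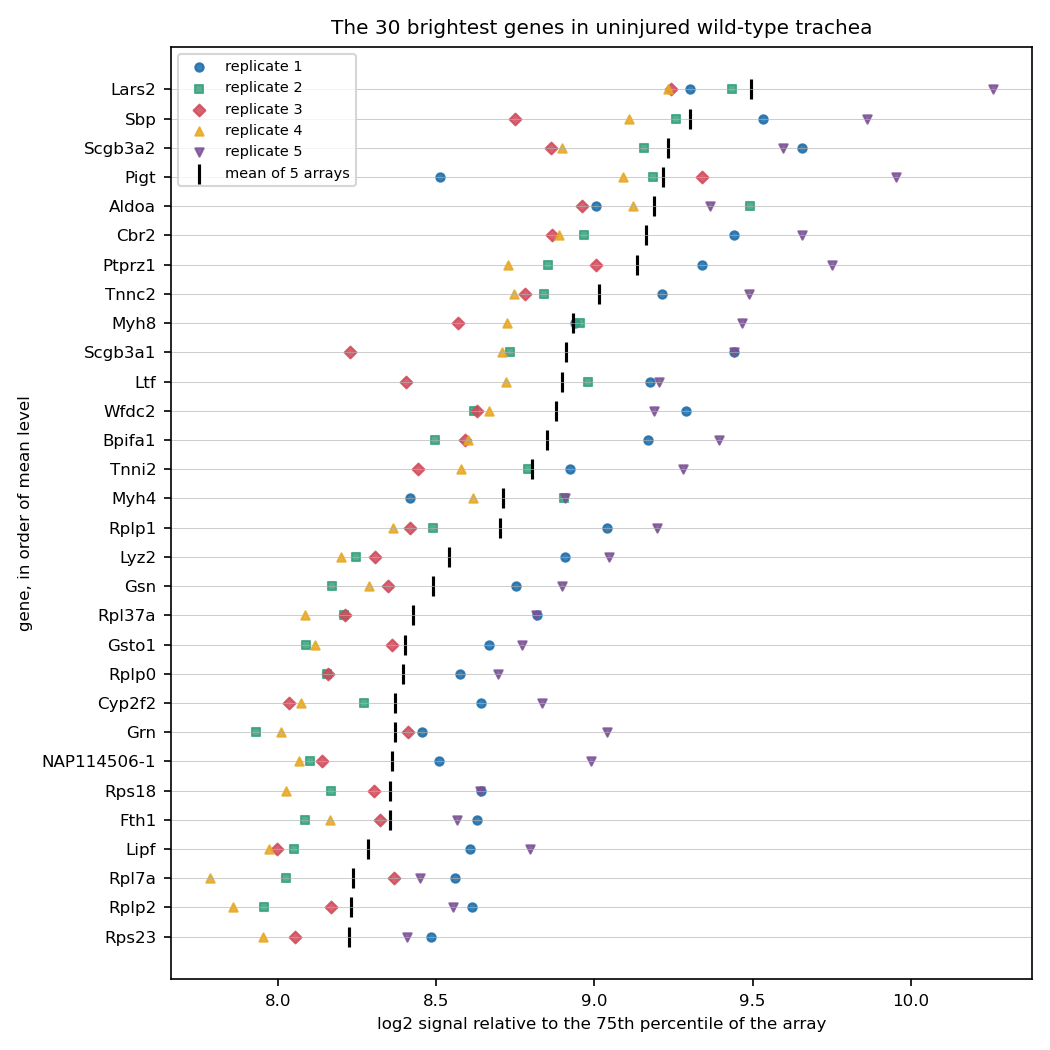
The 30 brightest genes of uninjured wild-type trachea, from the brightest at the top, with the level (log2 signal relative to the 75th percentile of the array) on the x axis, a point for each of 5 arrays and a bar for the mean of the accepted values. Genes of club cells, glands and skeletal muscle stand among ribosomal protein genes, and under this scaling replicates 1 and 5 lie to the right for most of them.

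Secretory products of the surface epithelium led the ranking among listed genes. Scgb3a2, a secretoglobin of club cells, had levels of 9.66, 9.16, 8.86, 8.90 and 9.60 on replicates 1 to 5, a mean of 9.23 ± 0.38 (SD, n = 5) and rank 3. Scgb3a1, a related secretoglobin, read 9.44, 8.73, 8.23, 8.71 and 9.44, and the carbonyl reductase gene Cbr2 read 9.44, 8.97, 8.87, 8.89 and 9.66. In all 3 genes replicates 1 and 5 were the highest arrays and replicate 3 the lowest. Bpifa1, a secreted surfactant-like host defence protein, followed at rank 13 with a mean of 8.85 ± 0.40, and Cyp2f2, the cytochrome that marks mouse club cells, at rank 22 with 8.37 ± 0.35. Scgb1a1, the secretoglobin by which club cells are most often recognised, was dimmer on its single probe, with 7.93, 7.06, 6.98, 7.12 and 7.41, a mean of 7.30 ± 0.39 and rank 92. All 12 club and secretory genes were ranked, 10 of them within the 1000 brightest, and their median level was 7.98 against 0.10 over all genes. The dimmest was Gabrp, a GABA receptor subunit, at 3.69.

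Gland products were nearly as bright. Ltf, the iron-binding antimicrobial lactotransferrin, had levels of 9.18, 8.98, 8.40, 8.72 and 9.20, and its other probe had a mean of 8.29. Wfdc2, a secreted protease inhibitor-like protein, read 9.29, 8.62, 8.63, 8.67 and 9.19. Bpifb1, a secreted relative of Bpifa1, read 6.47, 8.03, 7.70, 7.64 and 8.04, and was low on replicate 1, where Scgb3a1 was high. The gland list had a median level of 7.51 over 9 ranked genes of 10, and included Lyz1 at 7.84, Dmbt1 at 7.51, the water channel gene Aqp5 at 6.80 and the mucin gene Muc5b at 5.72. Bpifa2, known from salivary gland, was not well above background on any of the 5 arrays.

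Fast skeletal muscle genes formed the other bright group of the listed tissues. Tnnc2, the calcium-binding troponin of fast fibres, had levels of 9.21, 8.84, 8.78, 8.74 and 9.49 and rank 8. Tnni2, its inhibitory partner, had a mean of 8.80 ± 0.33, and Myh4, the myosin of the fastest fibres, had 8.42, 8.90, 8.62 and 8.91 on replicates 1, 2, 4 and 5 and no accepted spot on replicate 3. All 15 genes of the list were ranked, 14 within the 1000 brightest, with a median level of 6.76. The order of arrays differed within the list. The 4 genes Casq1, Actn3, Ckm and Mybpc2 were lowest on replicate 1 and highest on replicate 2. Casq1, the calcium store protein of the sarcoplasmic reticulum, had levels of 0.68, 3.17, 1.80, 2.09 and 1.15. Tnnc2, Tnni2, Myl1 and Myh1, in contrast, were highest on replicate 5. Of the 15 genes, 8 were highest on replicate 2 and 6 on replicate 5. Under the 3 other scalings 8 to 10 were highest on replicate 2 and 4 to 5 on replicate 5, so that part of this order depended on the scaling. Slow and cardiac muscle genes were dimmer, with a median of 0.24 over 10 ranked genes of 12, led by Myl3 at 5.86 and Actc1 at 5.07. Myh7, the slow and cardiac myosin, read 1.09, 1.12, 0.26, 1.53 and 1.23.

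Housekeeping classes also stood near the top. The 76 ranked cytosolic ribosomal protein genes had a median level of 6.85, and 66 of them lay within the 1000 brightest. The 83 respiratory chain genes had a median of 5.70, with 68 in the 1000 brightest. Their medians on replicates 1 to 5 were 5.97, 5.88, 5.20, 5.53 and 5.86, and replicate 3 was the lowest array for 75 of the 83 genes, against 6252 of all 16447, and for 71 to 75 of them under the 3 other scalings tried. No gene of either class had an SD over 1.

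Several of the brightest probes belonged to genes without a list, and some of these were not matched by other probes of the same gene. Lars2, the mitochondrial leucyl-tRNA synthetase, was brightest of all on its only probe, with 9.30, 9.43, 9.24, 9.23 and 10.26 and a mean of 9.49 ± 0.44. Aldoa, a glycolytic aldolase abundant in muscle, had 9.19 ± 0.23 on one probe and 8.79 on the other. The top probe of Sbp, spermine-binding protein, had a mean of 9.30 ± 0.42 while its other probe lay within background on all 5 arrays. Pigt had probes at 9.22 and -2.95, Ptprz1 probes at 9.14, 1.81, -4.0 and -7.15, and Myh8 probes at 8.93, -5.23, -5.26 and -6.45. For Sbp, Pigt, Ptprz1 and Myh8 the rank therefore holds for a single probe, and what the bright probe bound was not tested. Lars2 had no other probe to compare, and what its probe bound was not tested either. The array places the bright Pigt probe on chromosome 17 near NAP114506-1, a probe known only by its array name, at rank 24. Pigt and Lars2 were both highest on wild-type replicate 5 and lowest on Myd88KO replicate 5, at 7.55 and 7.36. Brightest and other probes also differed for Lyz2, lysozyme of macrophages (8.54 and 4.31), and Grn (8.37 and 3.14). The same held for Rplp0 (8.40, 6.77 and 4.39), Rps18 (8.35, 6.67 and -4.21) and Rpl7a (8.24, 5.48 and 5.28). With the mean of all probes of a gene in place of the brightest, the 100 brightest genes held 28.9% of the signal and included 24 listed genes. Further down, the ranking of genes without a list held the trefoil factor gene Tff2 at 7.84, the calcification inhibitor gene Mgp at 7.65, the muscle genes Tcap at 7.63 and Mb (myoglobin) at 7.39, and the mesothelial gene Msln at 7.28.

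Connective tissue, smooth muscle and fat stood next. Fibroblast genes had a median level of 5.98, led by Gsn at 8.49 ± 0.31 and the matrix proteoglycan gene Dcn at 7.62, with the collagen genes Col1a2 at 6.55, Col1a1 at 6.54 and Col3a1 at 6.32. Acta2, the smooth muscle actin, had levels of 7.11, 6.74, 6.74, 6.78 and 6.76 (mean 6.83 ± 0.16, rank 135), highest on replicate 1 and 6.74 to 6.78 on the other 4 arrays. Its 4 other probes had means of 5.25, 2.16, -0.79 and -5.46. Cfd, the adipocyte-secreted complement factor D, had 8.03, 7.66, 7.06, 7.94 and 8.40, a mean of 7.82 ± 0.50 and rank 50. Fabp4, a fatty acid binding protein of adipocytes, stood at 7.46 and the hormone gene Adipoq at 4.47, so that a list median of 4.47 described fat in tracheas whose outer tissue had been trimmed. Ucp1, the uncoupling protein that defines brown fat, was well above background on all 5 arrays with 1.50, 2.37, 0.66, 3.09 and 2.30. Tg, the thyroid hormone precursor, had 7.97, 6.53, 7.02, 8.37 and 8.21, rank 62, and its other probe had a mean of 7.47.

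Cartilage, although it frames the organ, gave moderate levels, with a median of 1.81 over 16 genes. Cytl1, a secreted cartilage protein, was brightest with a mean of 5.48, followed by Chad at 4.07, Comp at 3.83 and the defining collagen gene Col2a1 at 3.47, which varied from 3.15 to 3.73. Ciliated cell genes had a median of 1.69 over 14 genes. Dynlrb2, a dynein light chain, read 5.95, 5.14, 4.20, 5.02 and 5.10, and Foxj1, the regulator of motile cilia, read 3.82, 2.88, 2.39, 3.03 and 2.93. Ciliated genes shared an order of arrays, with 11 of 14 highest on replicate 1 and 11 of 14 lowest on replicate 3, under each of the 4 scalings. Of all 16447 genes, 3893 to 4426 were highest on replicate 1 and 6167 to 6271 lowest on replicate 3, depending on the scaling. General epithelial keratins were steady, Krt8 at 5.81 ± 0.13, Krt18 at 6.10 ± 0.28 and Krt19 at 5.54 ± 0.12. Of the distal lung list, the collectin gene Sftpd reached 5.28 and Sftpa1 3.30, while Sftpc, which defines alveolar type II cells, had a mean of 0.04 and Sftpb was not above background on every array.

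Most immune, neural and dividing cell lists had medians below the 0.10 of all ranked genes. Medians, over ranked genes only, were 0.74 for macrophages and dendritic cells (11 of 11 genes), -0.75 for mast cells (5 of 7) and -1.0 for B and plasma cells (6 of 9). They were -1.55 for neutrophils (3 of 8), -2.28 for T cells and thymocytes (6 of 10), -2.54 for neurons (6 of 8) and -1.56 for proliferation (10 of 10). The immunoglobulin gene Igh-VJ558, in no list, was brighter and is given below. The brightest of the macrophage and dendritic cell list stood far above its median. They were Lyz2, at 8.54 on the brighter of the probes described above, and Cd74, the invariant chain of antigen presentation, at 3.72. Endothelial genes had a median of 1.70, with Vwf brightest at 2.89. Of 311 listed genes, 305 had a probe and 271 were ranked.

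**Figure D2:**
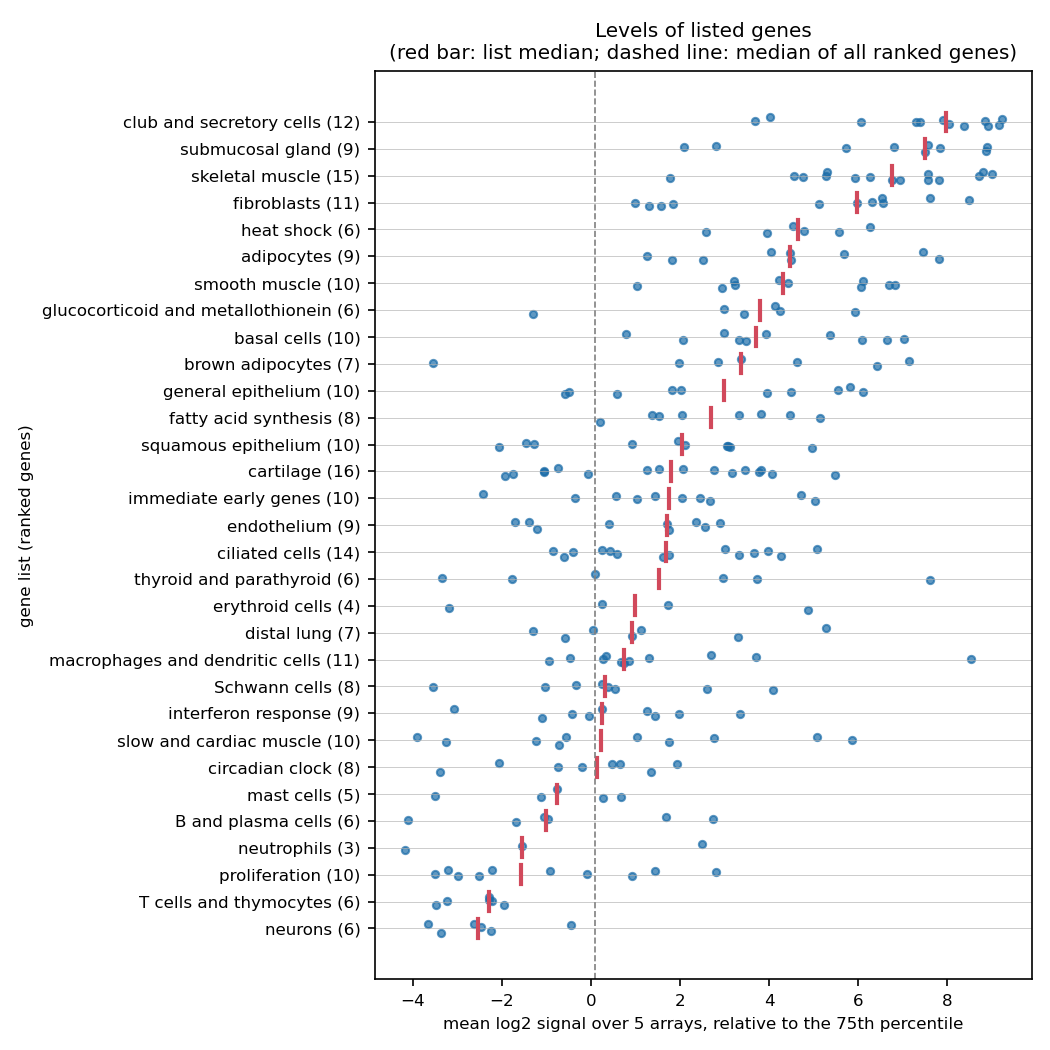
Levels (log2 signal relative to the 75th percentile of the array, mean of 5 uninjured wild-type arrays) of the ranked genes of each marker list, with a red bar for the list median and a dashed line for the median of all ranked genes. Club cell, gland, skeletal muscle and fibroblast lists lie highest, and T cell and neuron lists lie below the line.

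The ranking by brightness varied little between genotypes. In 5 uninjured Myd88KO arrays, ranked the same way and not used above, 96 of the 100 brightest genes were again among the 100 brightest, and over 15992 genes ranked in both groups the levels had a Spearman correlation of 0.992, a description across genes. SDs of the same probes had a Spearman correlation of 0.489, and 12 of the 100 most variable genes were again among the 100 most variable. Without wild-type replicate 3 the correlation was 0.439 and the shared genes numbered 36.

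Across the 5 arrays the median SD of a gene was 0.298, with 0.116 and 0.697 as the 5th and 95th percentiles, and 300 genes (1.82%) had an SD over 1. None of the 100 brightest genes and 6 of the 1000 brightest were among them. Replicate 3 was the highest array for 209 of the 300, and without it 94 of the 16447 genes had an SD over 1. Leaving out replicate 1, 2, 4 or 5 instead gave 342, 337, 352 and 362 genes. At the other end, the 10 least variable of the 1000 brightest genes were led by Cldn7, a claudin of epithelial tight junctions, with levels of 4.53, 4.48, 4.50, 4.55 and 4.47 and an SD of 0.0335, below the spread between spots within an array. Atf5, Eif3c, Clstn1, Bcl6, Cavin1, Eef1d, Canx, Serinc3 and Hnrnpm followed, with SDs of 0.05 to 0.07.

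Among the 100 brightest genes, 42 were highest on replicate 1 and 50 on replicate 5, the arrays of scan day 2. Of all 16447 genes, 4426 and 3930 were. The median level of the 100 brightest was 8.06 and 8.09 there against 7.77, 7.61 and 7.60 on replicates 2, 3 and 4. Under quantile normalization, which gives all arrays the same distribution of signal, 36 were highest on replicate 1 and 19 on replicate 5. The counts were 54 and 28 with scaling to the median, and 41 and 45 with normexp background correction. The part of the scan day in this order was not tested.

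**Figure D3:**
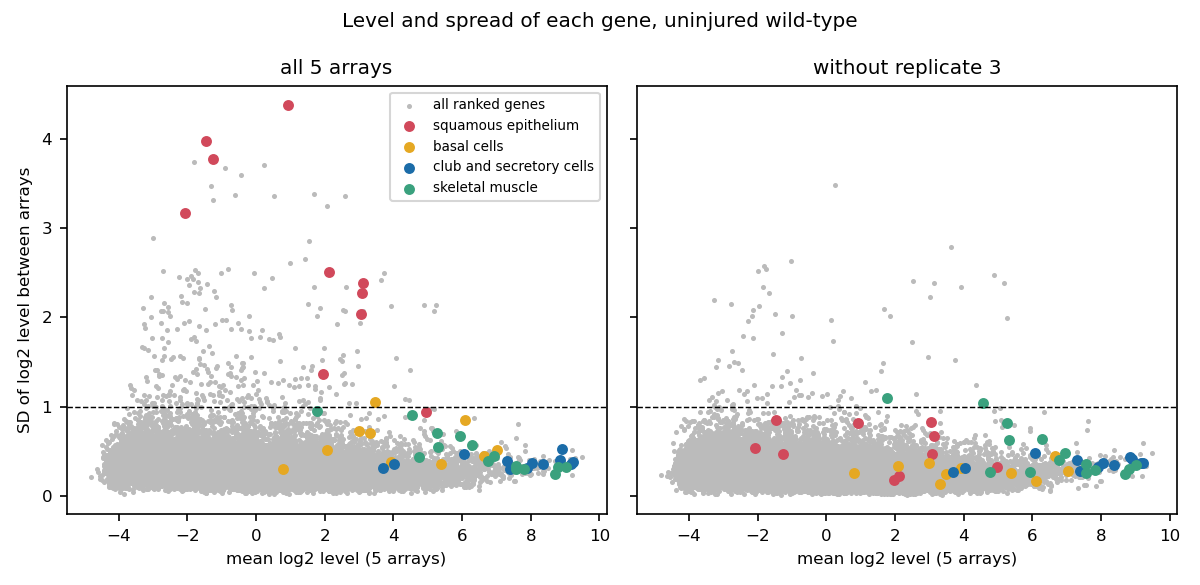
The SD of each gene between arrays against its mean level (both log2), for all 5 uninjured wild-type arrays and for the 4 without replicate 3, with a dashed line at an SD of 1 and squamous, basal, club and skeletal muscle genes coloured. With replicate 3, 9 of the 10 squamous genes lie above the line, and without it none do.

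Genes of the squamous list had the 3 highest SDs, and the genes of this list were high on a single array. Of the 100 most variable genes 8 were of the squamous list, 3 of other lists and 89 of none, and 70 were highest on replicate 3 and 17 on replicate 4. All 10 ranked genes of the squamous list were highest on replicate 3, under each of the 4 scalings, against 3007 to 3297 of all 16447 genes. Lor, loricrin, the main protein of the cornified envelope, had levels of -1.28, 0.21, 8.65, -1.51 and -1.43 (SD 4.38, the highest of all ranked genes). Krtdap, a secreted protein of differentiating keratinocytes, read -2.76, -3.75, 5.54, -4.06 and -2.23, and Sprr3, a small proline-rich envelope protein of oesophageal type, read -2.69, -3.61, 5.46, -2.54 and -2.93. On each of the other 4 arrays these 3 genes were at least 7.77 units lower.

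Krt4 and Krt13, the keratin pair of non-cornified stratified epithelium, showed the same array. Krt4 had levels of 1.24, 1.88, 7.27, 2.53 and 2.69, and Krt13 had 1.80, 1.57, 7.08, 2.43 and 2.53. Sbsn (suprabasin) reached 6.60, Calml3 6.56, Sprr1a 6.47, Krt6a 4.38 and the transglutaminase gene Tgm3 3.53 on replicate 3. The median of the list was 1.21, 0.97, 6.51, 1.22 and 1.18 on replicates 1 to 5. Of the 10 genes, 9 had an SD over 1 and 8 were among the 100 most variable, and without replicate 3 none had an SD over 1. In the 5 uninjured Myd88KO arrays the list median ran from 1.13 to 2.06 and no gene of the list had an SD over 1, and Lor lay between -2.80 and -0.76 in the 5 injured wild-type tracheas. Dsg3 was well above background only on replicate 3, at -1.19, and the list's remaining gene, Crnn, had no probe.

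Of the 20 genes with the highest SD, 19 were highest on replicate 3, and besides Lor, Krtdap, Sprr3 and Tgm3 they included further genes known from stratified epithelia. Asprv1, a skin aspartic protease, read 0.91, -0.48, 7.64, -0.26 and 0.58. Crct1, encoded in the epidermal differentiation cluster, reached 7.83 on replicate 3, and Lce1b, a late cornified envelope gene, reached 5.43. Slpi, a secreted inhibitor of leukocyte proteases, read 2.10, 0.49, 8.48, 1.43 and 0.45, and Ada, adenosine deaminase, read -0.70, -0.90, 6.52, -1.33 and -1.01. The remainder were LOC545547, Krt78, Calm4, Mt4, Serpinb3c, Wfdc5, Fam25c, Serpinb12, Cysrt1 and Nkpd1, at 2.11 to 6.60 on replicate 3. The exception was the immunoglobulin light chain gene Iglv1.

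The promoters of genes that carried this pattern are shown beside those of bright and variable secretory genes, as 250 bases before to 50 bases after the start of the gene in RefSeq (GRCm38.p6). Capitals mark matches, on either strand, to 3 motifs. The motif of the TATA box was TATAAA. The motif of AP-1, a factor made of Fos and Jun proteins, was TGAGTCA, which is reversed in Bpifa1. The motif searched for forkhead factors was TGTTTAC. In the printed promoters no match overlapped another. Lor (chr3:92083093-92083392, minus strand), Krtdap (chr7:30787655-30787954, plus strand) and Sprr3 (chr3:92458671-92458970, minus strand) are the 3 genes of highest SD.
Lor: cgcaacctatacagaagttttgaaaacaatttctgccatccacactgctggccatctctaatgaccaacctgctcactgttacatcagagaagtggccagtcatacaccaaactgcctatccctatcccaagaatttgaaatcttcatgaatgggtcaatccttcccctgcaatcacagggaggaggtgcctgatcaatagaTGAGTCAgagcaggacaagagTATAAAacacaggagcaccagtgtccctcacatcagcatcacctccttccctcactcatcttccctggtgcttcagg
Krtdap: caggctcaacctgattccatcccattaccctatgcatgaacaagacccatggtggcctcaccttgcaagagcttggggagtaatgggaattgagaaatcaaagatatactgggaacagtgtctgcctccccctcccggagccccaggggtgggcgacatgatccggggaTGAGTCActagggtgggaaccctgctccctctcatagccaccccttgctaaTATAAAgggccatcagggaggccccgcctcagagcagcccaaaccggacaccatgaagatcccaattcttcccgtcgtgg
Sprr3: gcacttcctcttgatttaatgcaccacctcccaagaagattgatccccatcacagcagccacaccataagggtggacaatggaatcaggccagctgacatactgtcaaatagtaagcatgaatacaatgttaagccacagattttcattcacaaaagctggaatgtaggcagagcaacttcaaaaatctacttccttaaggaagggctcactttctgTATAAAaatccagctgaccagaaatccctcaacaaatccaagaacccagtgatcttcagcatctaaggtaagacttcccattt
Bpifa1 (chr2:154142630-154142929, plus strand) and Scgb3a1 (chr11:49663345-49663644, plus strand) are club cell genes among the 13 brightest, and Prb1 (chr6:132210472-132210771, minus strand) is a proline-rich salivary protein gene described below.
Bpifa1: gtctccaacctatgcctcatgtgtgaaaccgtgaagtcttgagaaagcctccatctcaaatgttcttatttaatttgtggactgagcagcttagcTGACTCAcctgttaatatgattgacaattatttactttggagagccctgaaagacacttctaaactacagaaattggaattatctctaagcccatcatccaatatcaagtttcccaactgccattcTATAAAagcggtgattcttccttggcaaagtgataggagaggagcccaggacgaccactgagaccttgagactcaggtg
Scgb3a1: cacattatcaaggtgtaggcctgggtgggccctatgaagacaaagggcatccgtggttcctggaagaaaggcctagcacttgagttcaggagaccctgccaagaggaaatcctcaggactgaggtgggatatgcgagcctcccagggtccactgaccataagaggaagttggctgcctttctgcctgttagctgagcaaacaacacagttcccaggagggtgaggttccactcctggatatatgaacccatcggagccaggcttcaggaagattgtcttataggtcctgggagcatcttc
Prb1: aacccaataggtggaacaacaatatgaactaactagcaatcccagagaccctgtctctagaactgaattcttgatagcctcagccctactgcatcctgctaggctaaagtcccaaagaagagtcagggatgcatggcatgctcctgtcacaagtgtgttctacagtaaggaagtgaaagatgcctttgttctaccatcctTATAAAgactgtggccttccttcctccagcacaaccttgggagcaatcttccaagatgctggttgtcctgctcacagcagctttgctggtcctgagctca
TATAAA began 27 bases before the start in Lor, 30 in Krtdap, 33 in Sprr3, 29 in Bpifa1 and 50 in Prb1, and was not in the window of Scgb3a1. The AP-1 motif lay 48 bases before the start in Lor, 81 in Krtdap and 155 in Bpifa1. TATAAA was held by 8 of 16 promoters found for the 20 most variable genes, by 5 of 26 found for the 30 brightest and by 14.2% of all 27025 promoters. TGAGTCA was held by 4 of 16, 1 of 26 and 5.17%, and TGTTTAC by none of either set and 3.52% of all. These matches describe the letters of the windows. Scgb1a1 and Krt4 were not in the promoter table.

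Basal cell genes, which mark the renewing layer of airway, gland duct and squamous epithelium alike, followed replicate 3 to a lesser degree. Krt5, the basal keratin, had levels of 5.62, 5.83, 7.60, 5.54 and 5.88 (mean 6.09 ± 0.85, rank 265), and without replicate 3 its SD was 0.161. Its partner Krt14 read 3.15, 3.22, 5.31, 3.01 and 2.68. All 10 basal genes, among them Krt15 at a mean of 7.03, Trp63, the p63 gene, at 2.08 and Col17a1, were highest on replicate 3 under each of the 4 scalings, and the list median was 3.15, 3.38, 4.94, 3.50 and 3.73 on replicates 1 to 5. Of the 10 proliferation genes 8 were highest there, with Mki67 at 0.40, 0.26, 2.00, 0.59 and 1.43. The stress chaperone gene Hspb1 read 6.11 there and at most 4.69 elsewhere, and the clock output gene Dbp read 1.03 against 2.10 to 2.23. Replicate 3 was the highest array for 3133 of all 16447 genes and the lowest for 6252, and most genes of the ciliated, respiratory chain, cartilage (11 of 16), adipocyte (8 of 9) and club (9 of 12) groups were lowest there. Under the other scalings the club genes lowest there numbered 5 to 10. The part of a tissue other than the trachea wall in the levels of replicate 3 was not tested.

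**Figure D4:**
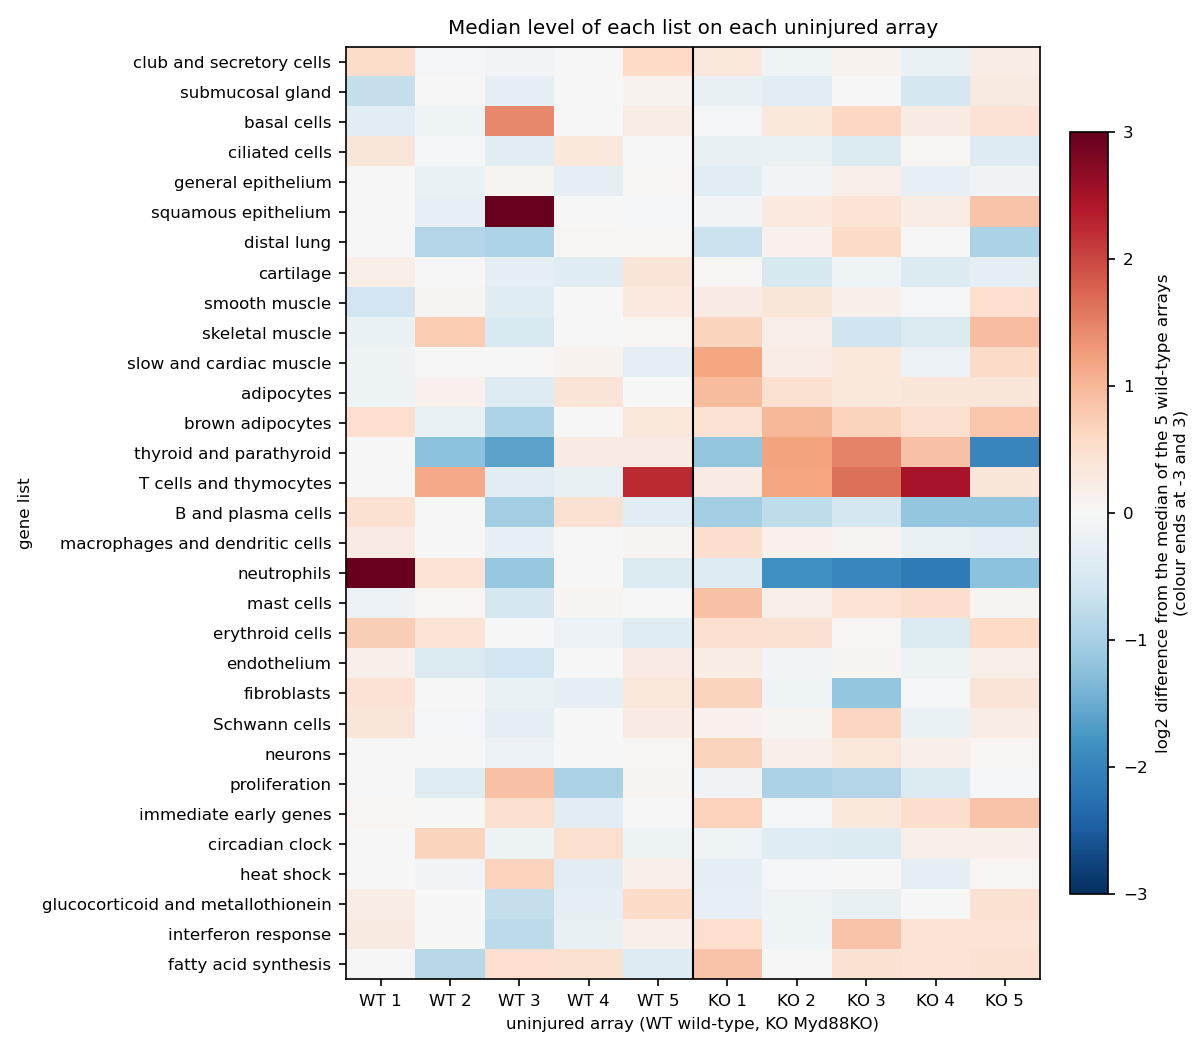
Median level of each marker list on each of 5 uninjured wild-type (WT) and 5 uninjured Myd88KO (KO) arrays, drawn as the difference (log2) from the list's median over the WT arrays, with the colour scale ending at -3 and 3. The squamous list on WT replicate 3 and the neutrophil list of 3 ranked genes on WT replicate 1 reach the end of the scale, the squamous list with a median level of 6.51 against 0.97 to 1.22 on the other WT arrays.

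Other variable genes marked single arrays in different combinations, and the groups in this and the next paragraph outside the marker lists were put together after their values were seen. Iglv1, an immunoglobulin lambda gene, had levels of 6.25, -1.20, -3.61, -1.04 and 0.84 and the highest SD without replicate 3 (3.49). Jchain, which joins secreted IgA and IgM, read 3.70, 1.55, -0.94, 4.37 and -0.23, and the heavy chain gene Igh-VJ558 read 6.96, 4.89, 3.00, 7.92 and 3.49. Jchain and Igh-VJ558 were thus high on replicates 1 and 4, and Iglv1 on replicate 1. The neutrophil calgranulin genes S100a8, at 1.16, -1.54, -3.09, -1.95 and -2.36, and S100a9, at 4.93, 1.97, 2.95, 1.55 and 1.14, were highest on replicate 1, as was the haemoglobin gene Hba-a1 at 6.37 against 4.21 to 4.70.

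A group of proline-rich salivary protein genes on chromosome 6 varied together in both genotypes. Prb1 had levels of 4.03, 2.54, 5.32, 5.97 and 8.05 in the wild-type arrays (SD 2.07) and 4.06, 5.56, 7.71, 2.80 and 7.56 in the Myd88KO arrays (SD 2.15). Prh1, Prp2, Prpmp5 and Gm4736 kept the same order of wild-type arrays, from replicate 2 up to replicate 5. Genes of this family are close copies of each other, so that their probes may bind the same transcripts and are not 5 separate readings.

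Thyroid and thymus genes were high on yet other arrays. Of the 6 ranked thyroid and parathyroid genes, 4 were highest on replicate 4 under each of the 4 scalings, among them Tg. Of all 16447 genes, 1369 to 2047 were highest there, depending on the scaling. Tshr, the thyrotropin receptor, read -3.31, -4.16, -3.91, -2.02 and -3.28, and the deiodinase gene Dio1 read 0.10, -0.65, -0.75, 1.72 and 0.09. Slc26a4, the anion exchanger pendrin, was highest on replicate 3 at -1.08, and Calca, expressed by thyroid C cells and by sensory nerves, read 6.40, 4.69, 0.48 and 3.37 on replicates 1, 2, 3 and 5 with no accepted spot on replicate 4. Pth, parathyroid hormone, was not ranked and stood at 2.00 on replicate 3, 0.24 on replicate 5 and -5.81 to -3.67 elsewhere. Dntt, the terminal transferase of thymocytes, read -3.25, -0.36, -3.11, -3.68 and 0.65, and Lck, a T cell kinase, read -3.15, -1.64, -3.75, -2.50 and -0.43, both highest on replicates 2 and 5. In all, 47 genes had an SD over 1 in both uninjured groups, of 300 in wild-type and 198 of the same probes in Myd88KO, Calca, Dntt, Lck and Prb1 among them.

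Genes off the ranking because they were not above background on every array could vary more still. Xist, the RNA of the inactive X chromosome, read 4.26, -6.32, -6.34, 4.10 and 4.87, and the Y-linked gene Ddx3y read -6.89, 1.04, 0.16, -7.12 and -6.58. Arrays high in Xist were low in Ddx3y and the reverse, with replicate 3 among those low in Xist. The part of sex in the spread between arrays was not tested. None of the 5 sex-linked genes was ranked. With probes needed above background on only 3 of 5 arrays, 423 genes had an SD over 1.

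**Figure D5:**
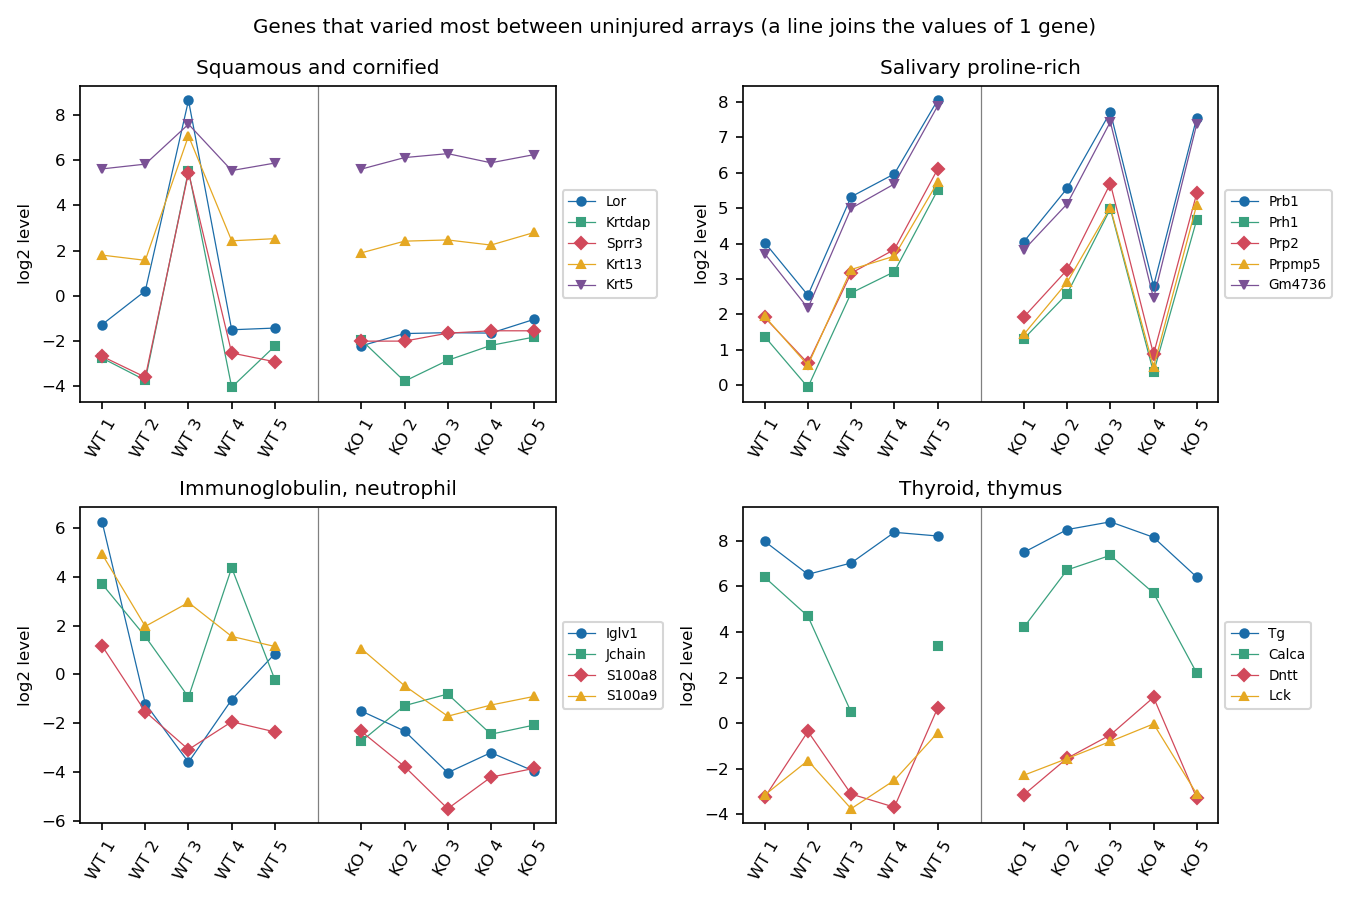
Levels (log2 signal relative to the 75th percentile of the array) on each of 5 uninjured wild-type (WT) and 5 uninjured Myd88KO (KO) arrays for squamous and cornified, salivary proline-rich, immunoglobulin and neutrophil, and thyroid and thymus genes, a line for each gene. The squamous genes rise on WT replicate 3 alone, whereas the proline-rich and thyroid genes vary within both genotypes.

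The place of these levels among the other groups was tested with limma over all 20 arrays, with p-values adjusted by Benjamini-Hochberg over all probes and called under 0.01. Both comparisons below share the uninjured wild-type arrays. Myd88 itself had a mean of 2.08 ± 0.14 in uninjured wild-type and 1.86 ± 0.17 in uninjured Myd88KO trachea, where it ran from 1.60 to 2.04, a difference of -0.21 (SE 0.14, limma adjusted p = 1). The labels do not say that the samples of a group came from separate mice, although the study's methods call the 5 samples of a group biological replicates. The p-values measure the spread between these samples. Where the Myd88 probe lies relative to the deleted part is not known here, so that it does not check the labels.

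Between genotypes few listed genes were called. Of 281 listed genes tested, 3 were higher and none lower in uninjured Myd88KO than in uninjured wild-type trachea, against 0.338% of all 17732 genes called in either direction and 0.169% called higher. Counted at an unadjusted p under 0.05 in limma, 28 were higher and 13 lower, against 4.38% and 1.7% of all genes. Among them were 7 of 8 fatty acid synthesis genes, all higher, and 3 of 5 neutrophil genes, all lower. These 2 lists were picked out after their values were seen. Myh7 rose from 1.05 ± 0.47 to 3.27 ± 0.46, a difference of 2.22 (SE 0.26, limma adjusted p = 3.75e-05), and the ranges of the groups did not overlap. The difference was 2.01 within scan day 1 and 2.55 within scan day 2. Myh6, the alpha cardiac myosin, rose by 1.74 (SE 0.26, limma adjusted p = 0.000757) from levels above background on 3 of 5 wild-type arrays, and with normexp background correction, which here adds an offset of 50 to each signal, the difference was 0.76 (limma adjusted p = 0.0113). Acly, which supplies acetyl-CoA for fatty acid synthesis, rose by 1.21 (SE 0.21, limma adjusted p = 0.00466), and with the replicate number as a block its adjusted p was 0.0128. Of 21 alternatives, Myh7 was called in 19, Myh6 in 18 and Acly in 10. Ucp1 had a mean of 1.98 in wild-type and 4.41 in Myd88KO trachea, a difference of 2.42 (SE 0.68) with an adjusted p of 0.199 in the same limma fit. Its levels ran from 0.66 to 3.09 in wild-type and from 3.95 to 5.06 in Myd88KO. Scgb1a1, Krt5, Acta2 and Cfd were not called, nor was any squamous, basal, gland or ciliated gene.

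After polidocanol more of the list moved. In injured against uninjured wild-type trachea 31 of the 281 listed genes were called, against 5.94% of all genes, with 13 higher and 18 lower, against 3.6% and 2.33%. Scgb1a1 fell from 7.30 ± 0.39 to -0.61 ± 0.50, a difference of -7.91 (SE 0.69, limma adjusted p = 1.05e-05), which was -7.67 within scan day 1 and -8.28 within scan day 2. Scgb3a2 fell from 9.23 to 3.47 and Bpifa1 from 8.85 to 6.62, and with Cyp2a5 and Lypd2 they were the 5 of 12 club genes called. Sntn, a protein of the tips of motile cilia, fell from -0.60 ± 0.52 to levels of -6.93 to -6.12 that were not well above background on any of 5 injured arrays (limma adjusted p = 0.000104). Its size depended on the background correction, with a difference of -6.05 on the processed signal and of -2.68 with normexp. Hydin, Dnah5, Dnah9 and Tmem212 also fell, so that 5 of 14 ciliated genes were called. Sftpa1 fell from 3.30 to -4.30, above background on 4 of 5 injured arrays (limma adjusted p = 0.000146), with Sftpc and Sftpd, 3 of 8 distal lung genes tested. Tnnt2, Scd1 and the plasma cell genes Jchain, Mzb1 and Pou2af1 completed the 18.

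The 13 that rose were 6 of 11 macrophage genes (Cd68, Adgre1, Csf1r and the complement genes C1qa, C1qb and C1qc), 6 of 10 proliferation genes (Ccnb1, Ccna2, Cdk1, Birc5, Aurkb and Rrm2) and the neutrophil receptor gene Csf3r. Cd68, a lysosomal protein of macrophages, rose from -0.94 ± 0.31 to 2.33 ± 0.69 (SE of the difference 0.53, limma adjusted p = 0.000908), Ccnb1, cyclin B1, by 2.77 (SE 0.53, limma adjusted p = 0.00235), and Csf3r by 4.05 (SE 0.83, limma adjusted p = 0.0038) from levels above background on 2 of 5 wild-type arrays. With normexp the difference of Csf3r was 2.44 (limma adjusted p = 0.0015), and over 21 alternatives it ran from 2.44 to 4.54 and was called in 17. Krt5 (adjusted p = 0.608 in the limma fit), Acta2 (0.934), Cfd (0.649) and Tg (0.88) were not called, nor was any squamous, basal, gland or skeletal muscle gene. Lor, with an SD of 4.38 in the uninjured wild-type group, had a difference of -2.94 (SE 1.59) and an adjusted p of 0.254 in that fit. Without uninjured wild-type replicate 3, 13 listed genes were higher and 16 lower after injury, and 4 were higher in Myd88KO. Lypd2, Csf1r and Scd1 were then not called, while Top2a after injury and Tnni1 in Myd88KO were.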

How the data were processed

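Total RNA of whole trachea (600 ng) was labelled with Cy3 and hybridised to 1-colour Agilent arrays of 45018 spots. The authors' scanner files were made with Feature Extraction 9.5.1.1 per the file headers, and the deposited processed signal is a background-subtracted intensity on a linear scale. The deposited value table gave the same values (ratio 0.995 to 1.005) and served as an alternative. From the files, 1639 control spots and outlier spots (500 values on the 5 arrays) were left out, spots of a probe were averaged, and log2 signal minus the 75th percentile of the array was taken. Probes well above background on all 5 arrays with at least 4 accepted values were ranked, the brightest per gene. Means and SDs are over arrays, and the number of arrays limits their precision.

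Probes were named through RefSeq by accession (22951) or by symbol (6659 current, 3109 older), and otherwise as on the array (8455). Ribosomal and respiratory chain genes were taken by symbol. Named genes were Scgb1a1, Krt5, Acta2, Cfd and Myd88, the 30 brightest, the 20 of highest SD, the 10 of lowest SD among the 1000 brightest, the brightest, dimmest and most variable gene of each list, and at most 3 rises and 3 falls per comparison. The members and lists were chosen with earlier results of these data known.

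Comparisons used limma 3.58.1 in R 4.3.3 (lmFit, contrasts and eBayes over 4 groups, probes well above background on at least 10 of 20 arrays, Benjamini-Hochberg adjustment). Scripts were tested on simulated data. The study's methods named an unmoderated parametric analysis of variance at the same threshold. Its form for 2 groups was run here on the 10 arrays compared, as an alternative (the unmoderated test). Alternatives were quantile, median and normexp (offset 50) processing, other probe and background rules, leaving out each array, the replicate number as a block and, chosen after seeing the data, scan day as a block, fits within each scan day, and the most variable genes without replicate 3. The replicate number is the slide. Deviations from the group means of same-numbered uninjured wild-type and Myd88KO arrays correlated at 0.48, 0.25, 0.25, 0.38 and 0.33. The highest correlations with a Myd88KO array of another number were 0.37, 0.03, 0.23, 0.31 and 0.20. Those of same-numbered injured wild-type arrays ran from -0.03 to 0.40 and were not always the higher. The main fits held no block and so ignore any pairing by number, which entered only as the replicate block among the alternatives. Python 3.11.15 with pandas 2.3.3 was used for the ranking.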

Additional observations from a re-analysis of the deposited data

Results flagged for a closer look

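Of 132 named genes, 29 had an array far from the other 4 of the uninjured wild-type group, where the gap to the nearest array, divided by the range, passed Dixon's critical value of 0.71. Of these genes 57 were named for their high or low spread, or the highest spread of their list, on these same arrays, so that the 24 of them with such an array are a description only. Of the 75 named otherwise, 5 had one (Krt5, Acta2, Lars2, Dbp and Scd1), where chance gives about 1 in 20 groups, and genes that move together are not separate cases. On replicate 3, 22 genes were highest and 1 lowest. The highest were Lor at 8.65, Slpi at 8.48, Crct1 at 7.83, Asprv1 at 7.64, Krt5 at 7.60, Fam25c at 6.60, Ada at 6.52, Serpinb12 at 6.13, Hspb1 at 6.11, Calm4 at 5.90, Krt78 at 5.64, Cysrt1 at 5.62, Krtdap at 5.54, Sprr3 at 5.46, Lce1b at 5.43, Krt14 at 5.31, Mt4 at 4.88, LOC545547 at 4.87, Serpinb3c at 4.66, Nkpd1 at 3.72, Tgm3 at 3.53 and Wfdc5 at 2.11. The lowest was Dbp at 1.03, an output gene of the clock. On other arrays Hba-a1 at 6.37 was far above the rest on replicate 1 and Bpifb1 at 6.47 far below on replicate 1. Mt2 at 4.72 was far below on replicate 2, Scd1 at 5.78 far above on replicate 4 and Lars2 at 10.26 far above on replicate 5. The measure is relative to the range, so that Acta2 passed it on replicate 1 at 7.11 although the nearest array read 6.78.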

How the results depend on the processing

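The share of signal in the 100 brightest genes was 24.6 to 25.2% under the other scalings, the value table and the median over arrays, and 28.9% with the mean of all probes of each gene, and it ran from 24.2 to 25.9% when single arrays were left out. Listed genes among the 100 brightest numbered 24 to 27 and among the 100 most variable 10 to 12 under every alternative. The variable genes themselves changed more than their count. Without replicate 3, among the same ranked genes, 30 of the 100 most variable stayed so. The 12 listed were then 3 of thyroid and parathyroid, 2 each of T cells, neutrophils, distal lung and skeletal muscle, and 1 of B and plasma cells. With all 5 arrays the 11 listed had held 8 of the squamous list. The count of genes with an SD over 1 was 300, and it was 99 without replicate 3 and 348 to 376 without another array, each with the background rule applied anew (a range of 99 to 376), 308 under quantile and 220 under normexp processing, and 423 with probes above background on at least 3 of 5 arrays. A range between the inner arrays cannot give such a count.

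Listed genes called between genotypes were 3, and 5 with scan day as a block, 4 with only the 10 arrays compared, 0 by the unmoderated test, 2 within scan day 1 and 0 within scan day 2, and 2 to 4 when single arrays were left out. The 0 by the unmoderated test and the 0 within scan day 2 stand beside 28 genes higher and 13 lower in limma at an unadjusted p under 0.05. After injury 31 were called, with 38 in only the 10 arrays compared, 36 with scan day as a block, 26 with no filter, 22 by the unmoderated test, 21 within scan day 1 and 18 within scan day 2, and 15 to 29 when single arrays were left out. The fewest, 15 (4 higher and 11 lower), came without injured wild-type replicate 1, and 19 (6 higher and 13 lower) were called without uninjured wild-type replicate 4. Rises depended on single arrays more than falls did. Against 13 higher and 18 lower in the main fit, leaving out single arrays gave 4 to 13 higher and 11 to 18 lower. Within scan day 1 there were 10 higher and 11 lower, and within scan day 2 there were 2 higher and 16 lower. Scan day fits rest on 3 and 2 arrays per group. With the replicate block the counts were again 3 and 31, with the calls of Acly, Lypd2, Ccna2 and Scd1 lost and those of Tnnc1, Nr4a1, Dbp and Arntl gained. No direction reversed. Causes were not tested.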
